A study of Arabidopsis thaliana with 12 samples.

Results

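The comparison described here asked what 10 mM sucrose did to the transcripts of Arabidopsis thaliana seedlings exposed to the folate synthesis inhibitor sulfamethoxazole (SMX). It set the 3 arrays of seedlings raised with both 10 mM sucrose and 0.2 µM SMX against the 3 arrays of seedlings raised with 0.2 µM SMX alone, 6 of the 12 arrays of the series, over all 22746 probe sets that are not array controls. All 6 arrays carry RNA of whole wild-type seedlings of the Columbia ecotype, 3 days old, 1 array for each of 3 biological replicates per treatment. The seeds stood in liquid MS medium in foil-wrapped plates, were chilled, then lit for some hours to promote germination, and grew for 3 days before total RNA was extracted. Both groups carried the drug throughout, so sucrose in the medium was the labelled difference between them, and the remaining 6 arrays (no addition, and sucrose alone) served to estimate the spread and to show the sucrose difference without the drug. The RNA came from whole seedlings, so fewer cells of a type and less RNA per cell cannot be told apart in any value below.

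Sucrose is the sugar that plants move between organs, and seedlings read it as a sign of carbon supply. When sugar is scarce, the kinase SnRK1 turns on genes that break down amino acids, fatty acids and cell contents. When sugar is plentiful, glycolysis, cell wall building and ribosome production are favoured and photosynthetic genes are held back. SMX mimics p-aminobenzoate and blocks dihydropteroate synthase, an enzyme of folate synthesis, and folates carry the one-carbon units needed for purines, thymidylate and methionine.

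The arrays of the 2 groups differed in labelling as well as in sucrose, and every result below has to be read beside that. Affymetrix arrays carry probe sets for the 3′ and the 5′ end of the same control transcript, and because labelling starts at the 3′ end, a large 3′ minus 5′ difference marks arrays on which far ends were poorly labelled. The spike score, the mean of this log2 difference over the added bacterial RNAs dap, lys and phe, was 4.24, 7.45 and 6.0 on the SMX arrays and 1.44, 0.72 and 1.40 on the sucrose plus SMX arrays. The 2 groups did not overlap, and their means of 5.90 ± 1.61 and 1.19 ± 0.40 (SD, n = 3) differed by −4.71. For the seedlings' own transcripts the same difference was 5.25, 7.99 and 6.21 against 1.43, 0.96 and 1.05 for actin, and its group difference was −4.97 for GAPDH and −0.71 for ubiquitin. All 8 labelling measures separated the groups, each with an exact two-sided permutation p = 0.1, unchanged by Benjamini-Hochberg adjustment and the smallest that 3 against 3 arrays allow. The 7 control probe sets at the 3′ end differed by −0.26 to 1.29 between groups (median 0.038), whereas the 7 at the 5′ end read 0.63 to 7.39 higher with sucrose (median 5.18). Sucrose and labelling therefore cannot be told apart by design, least of all for probe sets far from a 3′ end. The fit was therefore repeated with the spike score, or the same score of actin, as a covariate, and a change printed below without such a value is the one from the fit without a score.

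**Figure D1:**
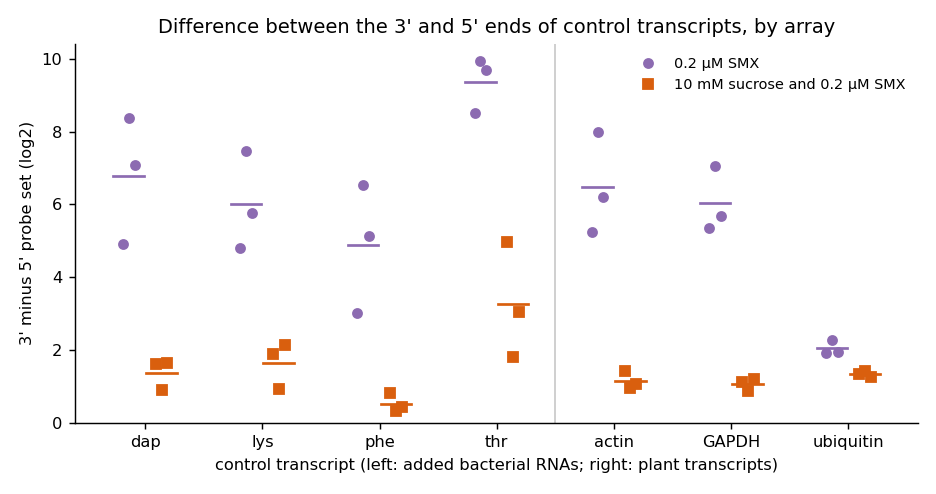
The 3′ minus 5′ log2 value (vertical axis) of 7 control transcripts on the 3 SMX arrays (circles) and the 3 sucrose plus SMX arrays (squares), with bars at the group means. For each transcript the SMX arrays lie above all sucrose plus SMX arrays, by a mean of 5.34 for actin and 0.71 for ubiquitin.

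The arrays differed in further controls as well. The hybridization controls bioB, bioC, bioD and cre, added after labelling, differed by −1.60 to −0.20 between the group means, and BioB-5 read 8.93, 7.81 and 8.85 on the SMX arrays and 6.03, 6.58 and 8.19 with sucrose, where replicate 3 stood apart. The 25S rRNA control averaged 4.01 without and 10.7 with sucrose. Without sucrose plus SMX replicate 3 the count of calls given below was 6107. The part of these differences in the results was not tested. Values ran from a floor of 2.12 to 15.67 on the log2 scale over the series, and the medians of the 6 arrays lay between 5.71 and 5.81. Arrays correlated at 0.990 to 0.991 within the SMX group, 0.991 to 0.994 within the sucrose plus SMX group and 0.934 to 0.950 between them, and the first principal component, with 82.7% of the variance, separated the groups. Besides the 4894 probe sets that lay at the floor on at least 2 arrays, 1404 had a higher lowest value of their own on at least 2 arrays, so sizes near such a value are not exact.

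With sucrose, most measured genes of sugar starvation (8 of 10), autophagy (7 of 11) and nuclear photosynthesis (6 of 11) fell, and 9 of 13 of glycolysis, 9 of 19 expansins and all 4 root hair genes measured rose. The autophagy genes measured were mostly of the ATG8 family. The medians of autophagy (−0.90) and glycolysis (1.48) were −0.10 and 0.56 with the spike score. In limma with Benjamini-Hochberg adjustment over all probe sets, 7384 of 22746 were called at an adjusted p under 0.05 (32.5%), 3689 up (16.2%) and 3695 down (16.2%), and 4869 of them changed by at least 1 on the log2 scale. Changes of at least 2 were more often rises (909) than falls (495). The arrays of the 2 groups did not overlap for 10296 probe sets (45.3%). Once the spike score entered the fit, 138 passed (0.607%), 87 up and 51 down, of which 133 were also called without it in the same direction. With the actin score the count was 305 (1.34%), 198 up and 107 down, and 116 were called with each of the scores. Over the 7384 the median size was 1.24 (median SE 0.238), against 0.85 (SE 0.499) under the spike and 0.81 (SE 0.455) under the actin score, and 94.6% kept their sign with each.

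How much of a change the scores took away differed between rises and falls. Among probe sets that rose by at least 2, the median share of the change that remained was 57.3% under the spike and 57.4% under the actin score, and among those that fell by at least 2 it was 77.3% and 74.4%. At least 75% of the change remained under both scores for 268 of the 909 rises and for 212 of the 495 falls. The untreated control arrays, which are no part of the comparison, also differ in labelling among themselves, with spike scores of 3.95, 5.24 and 6.31. Control replicate 1 minus the mean of control replicates 2 and 3, a difference with no sucrose in it, correlated with the sucrose change at Pearson r = 0.504 and Spearman rho = 0.452 across probe sets, as a description. It was above 0 for 79.1% of the probe sets called up and below 0 for 70.2% of those called down. This difference between untreated arrays had a median of 0.42 for the called rises and −0.22 for the called falls. It is quoted below for some, not all, of the genes where it is large.

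Genes that plants use when sugar is short were mostly lower with sucrose. Of 10 probe sets of sugar starvation genes, most of them enzymes of amino acid breakdown, 8 fell and 1 rose (90% called, against 32.5% of all probe sets; 10 of 27 loci listed were measured), with a median of −1.25 where the median of all probe sets was 0. MCCA, part of methylcrotonyl-CoA carboxylase in leucine breakdown, read 10.83, 11.26 and 11.37 on the SMX arrays and 7.42, 7.46 and 7.28 with sucrose. Every SMX array lay far above every sucrose plus SMX array, a change of −3.77 (SE 0.412; 13.6-fold; limma, Benjamini-Hochberg adjusted p = 0.00038). AT4G33150, the bifunctional enzyme that starts lysine breakdown, read 10.56, 10.69 and 9.96 against 8.35, 8.58 and 7.85, a change of −2.14 (SE 0.277; −1.96 with the spike score). IVD, the isovaleryl-CoA dehydrogenase of the same leucine route, fell by 1.5, MCCB, the partner subunit of MCCA, by 1.26, and ETFQO, which passes the electrons of these reactions to respiration, by 1.23, and they were −1.37, −1.23 and −1.79 with the spike score, not called. ETFALPHA, a subunit of the electron carrier that feeds ETFQO, went the other way. It read 7.62, 7.85 and 7.62 without and 8.53, 8.54 and 8.50 with sucrose, a rise of 0.83 (SE 0.098). The list's median was −1.26 under the spike and −1.18 under the actin score, near its value without them. In the list ETFALPHA alone still passed with the spike score (1.21; Benjamini-Hochberg adjusted p = 0.0409 in limma), while MCCA was −2.80 (adjusted p = 0.182).

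Autophagy transcripts, whose products enclose cell contents for recycling, moved the same way but did not keep their size. Of 11 probe sets 7 fell and none rose (63.6% called, median −0.90). All 7 are members of the ATG8 family, which coats the autophagosome, but so are all of the 11 except ATG3 and AT5G66930. The list therefore describes this family more than the pathway. ATG8E read 9.72, 9.94 and 10.05 on the SMX arrays and 8.19, 7.88 and 7.83 with sucrose, without overlap (−1.94, SE 0.256; limma, Benjamini-Hochberg adjusted p = 0.000841). ATG8F fell by 1.38 (−0.75 with the spike score) and ATG8D by 1.61. Under the spike score the list's median was −0.10 and under the actin score −0.19, and in the untreated arrays that differ in labelling the list's median difference was −0.66. ATG8D was −0.62 (SE 0.573) with the spike score. Of the 3 measured regulatory subunits of SnRK1, AKINBETA1 read 9.67, 10.05 and 10.43 against 8.19, 8.0 and 8.38 (−1.86, SE 0.255), whereas AT4G16360 (0.75) and AT2G28060 (0.78), its other beta subunits, rose. None of the 3 was called with a score, and AKINBETA1 was −0.89 under the spike and −1.21 under the actin score.

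Of 13 probe sets of glycolysis, the route that breaks down hexoses, 9 rose and 1 fell (76.9% called), with a median of 1.48 over the 13 of 33 loci listed that were measured. The pyruvate kinase AT5G08570, which makes the last step of glycolysis, read 9.39, 9.6 and 9.68 without and 11.75, 11.51 and 11.68 with sucrose, a rise of 2.09 (SE 0.169; limma, Benjamini-Hochberg adjusted p = 0.000115). AT5G56350 and AT5G63680, further pyruvate kinases, rose by 1.75 and 1.48 (1.43 and 1.01 with the spike score, not called). AT1G12000, a subunit of the pyrophosphate-dependent phosphofructokinase, rose by 3.69 and AT5G42740, phosphoglucose isomerase, by 2.61. The enolase ENOC was the member that fell (−0.78, and −0.92 with the spike score). The scores took unequal parts of these changes. AT5G08570 was 2.16 with the spike score and stayed called with the actin score (2.17, adjusted p = 0.0444), whereas AT1G12000 was 1.17 and AT5G42740 0.60 with the spike score, and the list's median was 0.56 with the spike and 0.55 with the actin score.

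The fructokinase AT2G31390, which feeds the fructose of cleaved sucrose into metabolism, was called in all 3 fits. It read 11.24, 11.44 and 11.69 without and 13.38, 13.29 and 13.42 with sucrose, and the 3 sucrose plus SMX arrays were nearly equal. The rise of 1.91 (SE 0.137; limma, Benjamini-Hochberg adjusted p = 8.14e-05) was 2.39 with the spike score (adjusted p = 0.0169) and 2.26 with the actin score (adjusted p = 0.0206). Of 9 probe sets of sucrose use 3 rose, all fructokinases (with AT5G51830 at 1.24 and AT1G66430 at 1.07), and 1 fell (44.4% called), while 6 of the 9 changes were negative and the median was −0.12. The one that fell was ATSPS4F, a sucrose-phosphate synthase, an enzyme that makes sucrose, at 7.41, 6.80 and 6.64 against 4.90, 4.41 and 4.84 (−2.23, SE 0.288), and it was −2.35 with the spike score. Of 15 probe sets listed for respiration, 7 rose and 3 fell (66.7% called, median 0.44). The list was matched by symbol and name. It also held the chloroplast proteins CYTC6A and AT5G58330 and the NADP-dependent isocitrate dehydrogenases cICDH and ICDH, so these counts are not of respiration alone. Among the rises were the NAD-dependent isocitrate dehydrogenase subunits IDH-V (1.51) and IDH-VI (1.81) and the cytochrome c gene CYTC-1 (0.92). IDH-V, IDH-VI and CYTC-1 were 1.36, 1.25 and 0.83 with the spike score, not called.

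Sugar transporters changed in both directions, with 4 of 30 up and 8 down (40% called, median −0.01). SWEET11, which exports sucrose from cells, read 11.52, 11.31 and 11.67 without and 10.34, 10.04 and 10.01 with sucrose (−1.37, SE 0.161; limma, Benjamini-Hochberg adjusted p = 0.000508). The vacuolar sugar importers TMT1 (1.15) and TMT2 (1.55) and the monosaccharide transporter AT5G61520 (1.63) rose. SWEET11 was −1.52, TMT1 0.70, TMT2 1.81 and AT5G61520 1.49 with the spike score, not called. For starch, APL3, a subunit of the ADP-glucose pyrophosphorylase that commits sugar to starch, rose by 0.66 (SE 0.15; adjusted p = 0.00933), while its paralog APL4 stood at 3.51, 3.79 and 3.64 against 4.03, 3.88 and 3.49, overlapping, with 0.15 (limma, Benjamini-Hochberg adjusted p = 0.657).

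Cell wall transcripts showed some of the greatest rises. Of 19 expansin probe sets, which encode proteins that loosen walls during growth, 9 rose and none fell (47.4% called, median 1.06). EXPA7, an expansin of root hairs, read 3.01, 3.38 and 3.38 on the SMX arrays and 7.0, 7.98 and 7.44 with sucrose. The arrays were several units apart, a rise of 4.22 (SE 0.307; 18.6-fold; limma, Benjamini-Hochberg adjusted p = 8.28e-05). EXPA18, also of root hairs, read 5.46, 4.66 and 5.34 against 9.26, 9.46 and 9.66, a rise of 4.31 (SE 0.297). EXPA7 was 4.26 (adjusted p = 0.0542) under the spike score and 4.39 (adjusted p = 0.0363) with the actin score, and EXPA18 was 2.97 (adjusted p = 0.0423) and 3.30 (adjusted p = 0.0363). Expansins outside the hair behaved unevenly: EXPA4 (4.01) was 1.07 and EXPA9 (2.95) was 1.60 with the spike score, whereas EXPA20 (3.61) was 4.98. The other root hair genes measured were the peroxidase AT3G49960, which rose by 3.92 from 4.94, 4.86 and 5.18, and the glycosyl hydrolase GH9C1 (1.37). All 4 measured of the 20 root hair loci listed thus rose (100% called, against 32.5% of all probe sets). EXPA7 and EXPA18 are also counted among the expansins, and AT3G49960 among the class III peroxidases below. The summed linear level of these 4 markers was 145 to 174 on the SMX arrays and 1386 to 2067 with sucrose, and none lay at the floor in both groups. Whether seedlings with sucrose had more root hairs was not tested.

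Other wall families moved less evenly. Of 10 XTH probe sets, which encode enzymes that cut and rejoin xyloglucan, 4 rose and 1 fell (50% called). XTH26 read 2.47, 3.15 and 3.5 against 5.75, 4.87 and 5.20 (2.23, SE 0.3) and was 3.27 with the spike score, called with the actin score (3.17, limma, Benjamini-Hochberg adjusted p = 0.0427), whereas XTH33 (1.42) was −1.0 with the spike score. Class III peroxidases, which cross-link or loosen walls, had 24 of 55 up and 6 down (54.5% called, median 0.16). AT1G34510 rose from 5.19, 5.21 and 5.54 to 8.77, 8.34 and 9.04 (3.40, SE 0.259) and stayed called with the spike score (4.03, adjusted p = 0.0409). AT5G17820 rose by 3.74 and was 2.28 with the spike score, and AT5G64120 rose by 2.13 (1.88 with the spike score). In the peroxidase list 37 of 55 members had a positive change with the spike score, and its median was then 0.36. Of 8 probe sets of cellulose synthase-like genes and COB, which orients wall deposition, 3 rose and 1 fell (50% called). CSLC6 (2.42), COB (1.03) and CSLD2 (0.72) rose and CSLA03 fell by 0.73. In that order they were 3.02, 0.68, 0.70 and −1.0 with the spike score, not called. The call of CSLD2 ended without SMX replicate 1 or either of sucrose plus SMX replicates 1 and 2 (limma, Benjamini-Hochberg adjusted p = 0.0517 to 0.0743). Of 9 tubulin and actin probe sets 3 rose and 6 did not pass the test (33.3% called, near the 32.5% of all; median 0.23). The 3 were TUB5 (1.90), TUA1 (1.51) and TUA6 (1.37), which were 0.45, 0.74 and 0.17 with the spike score, and they differed by 0.94, 0.87 and 0.99 in the same direction between the untreated arrays.

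The largest named rise was in a run of 3 jacalin lectin genes. AT1G52070 read 4.56, 3.99 and 3.17 without and 10.05, 10.03 and 10.07 with sucrose, a rise of 6.15 (SE 0.423; 70.8-fold; limma, Benjamini-Hochberg adjusted p = 7.61e-05). The value of 3.17 was identical on SMX replicate 3 and control replicate 1, so this size is not exact. Of 18 jacalin probe sets 4 rose and 5 fell (50% called). AT1G52060 rose by 4.17, AT1G52050 by 3.68 and AT2G25980 by 1.10 (0.39 with the spike score), while JAL22 (−1.24), JAL33 (−1.17) and JAL34 (−0.84) were among those that fell. AT1G52070, AT1G52060 and AT1G52050 were 5.85, 4.60 and 4.55 with the spike score, and all 3 were called with the actin score (adjusted p = 0.0159 to 0.0253). Between the untreated arrays they differed by −0.99, −1.29 and −1.34, opposite to their change with sucrose. For AT1G52070 this difference includes the value of 3.17 on control replicate 1 and is not exact either. Of 14 lipid transfer protein probe sets 5 rose and 1 fell (42.9% called, against 32.5% of all), with a median of 0.21. This list did not hold the lipid transfer protein AT5G48490, which changed by −4.20 (−1.68 with the spike score). AT3G53980 read 6.10, 6.79 and 6.27 against 9.40, 9.52 and 9.05 (2.94, SE 0.289) and stayed called with the spike score (4.04, adjusted p = 0.0331), and AT3G18280 rose by 2.28 (2.39 with the spike score).

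Of 128 probe sets of cytosolic ribosomal proteins 36 rose and 14 fell (39.1% called, near the 32.5% of all), with 69 positive and 55 negative changes and a median of 0.08. AT2G47610 read 11.46, 11.35 and 11.53 against 13.06, 13.08 and 13.06, a rise of 1.62 (SE 0.15; limma, Benjamini-Hochberg adjusted p = 0.000193), and AT2G41840 rose by 1.68 (0.78 with the spike score). The list's median was 0.33 under the spike score, where 97 of 128 had a positive change and AT2G47610 was 1.14. PRH75, a nucleolar RNA helicase, rose by 1.82 and was 1.14 with the spike score. Core histones, needed when DNA is copied, had 1 of 10 up and 4 down (50% called, median −0.59). HTB11 read 11.41, 11.24 and 11.19 against 9.97, 9.68 and 10.17 (−1.34, SE 0.169), and HTB2 fell by 0.59, and they were −1.09 and −0.85 with the spike score, not called.

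Folate synthesis is what SMX inhibits, and its transcripts split by enzyme. Of 13 probe sets of folate and one-carbon metabolism 4 rose and 3 fell (53.8% called, median −0.16; 13 of 38 loci listed were measured). The first enzyme of the pterin branch, the GTP cyclohydrolase AT3G07270, read 8.29, 8.63 and 8.75 without and 9.96, 10.14 and 9.87 with sucrose, a rise of 1.43 (SE 0.21; limma, Benjamini-Hochberg adjusted p = 0.00128). FOLB1, a dihydroneopterin aldolase that acts later in the branch, read 6.98, 7.21 and 6.47 against 5.11, 4.80 and 4.95 (−1.93, SE 0.236), and its paralog FOLB2 fell by 1.34 (−0.47 with the spike score). AT4G30000, the mitochondrial enzyme that carries the dihydropteroate synthase activity blocked by SMX, read 5.43, 5.29 and 4.85 against 4.03, 4.06 and 3.97, without overlap. Its change was −1.17 (SE 0.161; limma, Benjamini-Hochberg adjusted p = 0.00101), −1.0 under the spike and −0.95 under the actin score (adjusted p = 0.24 and 0.241). Its paralog AT1G69190 lay at the floor of 2.12 in both groups. Of the enzymes that interconvert one-carbon folates, AT3G12290, a methylenetetrahydrofolate dehydrogenase, rose by 1.5, and 5-FCL, which recycles 5-formyltetrahydrofolate, by 1.47. With the spike score these were 0.57 and 1.20, AT3G07270 was 1.25 and FOLB1 −1.19, and none of the list was called with either score.

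Nucleotide synthesis and the methyl cycle use folates. Of 6 probe sets of nucleotide synthesis, from 22 loci listed, 4 rose and none fell (66.7% called, median 0.67). AT2G35040, the bifunctional enzyme that completes the purine ring and uses a formyl folate, read 9.04, 9.26 and 8.92 against 9.92, 9.97 and 9.94 (0.87, SE 0.134; limma, Benjamini-Hochberg adjusted p = 0.00159). PYRB, aspartate carbamoyltransferase of pyrimidine synthesis, rose by 1.09, and the GMP synthase AT1G63660 by 0.98. The list's median was 0.69 with the spike and 0.44 with the actin score, with no member called. In the methyl cycle, where 3 of 17 loci listed were measured, MMT, which makes S-methylmethionine, rose by 2.34 and HMT-1, which turns it back to methionine, by 0.67, with 1.43 and 0.44 under the spike score, not called.

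Photosynthetic transcripts were lower in part. Of 11 nuclear photosynthesis probe sets 6 fell and none rose (54.5% called, median −0.78). PSAN, a subunit of photosystem I, read 12.10, 12.60 and 12.43 without and 10.06, 9.91 and 8.89 with sucrose (−2.75, SE 0.368; limma, Benjamini-Hochberg adjusted p = 0.000878). PSBW of photosystem II fell by 1.89 and PRK, the phosphoribulokinase of the Calvin cycle, by 1.65, whereas LHCB4.1 (−0.65) and RCA (−0.41) did not pass the test. PSAN, PSBW and PRK were −1.98, −1.38 and −1.14 with the spike score. All 11 changes were negative with either score, with medians of −1.18 and −1.39, though none was called. As green tissue markers these 11 summed to a linear level of 37336 to 48475 on the SMX arrays and 15451 to 22348 with sucrose. Of 12 probe sets of chlorophyll and carotenoid synthesis 3 fell (25% called, below the 32.5% of all; median −0.10), CHLI2 of magnesium chelatase (−1.25), HEME2 (−1.20) and CHLM (−1.09), and 9 did not pass the test. These 3 were −1.48, −1.11 and −0.69 with the spike score, not called. Of 8 probe sets of seed storage and late embryogenesis 2 rose and none fell (25% called, below the 32.5% of all). The 8 do not include AT2G03850, a late embryogenesis abundant family member, which changed by −4.24 (−4.09 with the spike score). For 4 of the 8 the groups did not overlap, near the 45.3% of all probe sets. The summed level of the 8 overlapped, at 5182 to 6107 without and 4974 to 5720 with sucrose. Of 3 of seed oil breakdown 2 rose (66.7% called). Their summed level was 18469 to 23811 without and 35275 to 38611 with sucrose, and the list's median was −0.17 under the spike score.

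The chloroplast NDH complex, which cycles electrons around photosystem I, had the lowest medians of the lists. Of 8 nuclear genes for its subunits, assembly or transcript editing 7 fell (87.5% called, median −1.79). CRR21, a pentatricopeptide repeat protein that edits an ndh transcript, read 9.42, 9.21 and 9.24 against 6.45, 5.45 and 5.16 (−3.61, SE 0.346; limma, Benjamini-Hochberg adjusted p = 0.000222). CRR42, an assembly factor, read 8.27, 8.44 and 8.36 against 5.12, 5.05 and 5.01 (−3.30, SE 0.39), and CRR28, another editing protein, fell by 1.94. These 3 were −3.16, −2.24 and −1.25 with the spike score, not called, and the list's median was −1.32. Of the 10 plastid-encoded ndh genes 3 fell (30% called, near the 32.5% of all), ndhC by 0.85, ndhJ by 1.97 and ndhF by 2.36. The list's median of −1.94 stood beside a median difference of −1.56 between the untreated arrays. The calls of ndhJ and ndhF were close to the threshold (limma, Benjamini-Hochberg adjusted p = 0.0359 and 0.0499) and ended when single arrays were left out, replicates 1 and 3 of SMX and of sucrose plus SMX in both cases, SMX replicate 2 for ndhJ, and for ndhF also sucrose plus SMX replicate 2, control replicate 2 and sucrose replicates 1 and 2. Plastid-encoded photosynthesis genes went both ways, 3 of 33 up and 6 down (median −0.73, 27.3% called, below the 32.5% of all). Among them psbE (2.52) and psbF (1.90) rose and psbZ fell (−1.53). They were 1.0, 0.44 and −1.59 with the spike score, and psbE and psbF differed by 1.27 and 1.09 between the untreated arrays. Plastid ribosomal genes had 2 of 15 up and 3 down (33.3% called, near the 32.5% of all). The rises were led by rpl36 (2.50), and rps14 (−2.75) and rpl32 (−0.78) were among the falls. With the spike score rpl36 was 0.49, rps14 −1.48 and rpl32 −0.88, and the untreated arrays differed by 1.0 for rpl36 and −1.93 for rps14. The rps14 call ended without any one of SMX replicates 1 and 3 and sucrose plus SMX replicates 1 and 2 (limma, Benjamini-Hochberg adjusted p = 0.0714 to 0.0944), and that of rpl32 without SMX replicate 1 or sucrose plus SMX replicates 1 or 2 (adjusted p = 0.0646 to 0.0714).

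Auxin response genes fell in part. Of 15 probe sets 6 fell and 1 rose (46.7% called, median −0.01). IAA29, a repressor in auxin signalling, read 8.17, 7.95 and 8.32 without and 4.95, 4.30 and 4.82 with sucrose (−3.46, SE 0.273; limma, Benjamini-Hochberg adjusted p = 0.000111). GH3.3, an enzyme that inactivates auxin by amino acid conjugation, read 9.34, 9.30 and 8.92 against 6.90, 7.25 and 7.05 (−2.12, SE 0.352). LBD29, a lateral root regulator downstream of auxin, fell from 4.49, 4.65 and 4.07 to 2.12, 2.86 and 2.27 (−1.98), the last group being near the floor, so its size is not exact. Under the spike score these were −3.49, −3.21 and −2.01, and with the actin score −3.12, −3.02 and −1.77, with none called. GH3.17 was the one that rose (0.66). Of 7 probe sets listed for clock and light signalling 2 fell and none rose (28.6% called, below the 32.5% of all). The 7 include 2 probe sets of AT1G72390. They also include AT1G80820, a cinnamoyl-CoA reductase taken in by its symbol CCR2, so the share is not of clock and light genes alone. CCL, which follows the clock, fell by 4.01 and HYH, a light-response transcription factor, by 3.47. They were −3.89 and −0.90 with the spike score.

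Detoxification families had a smaller share of calls than all probe sets (32.5%). Of 64 glutathione transferase and UGT glycosyltransferase probe sets 10 rose and 5 fell (23.4% called, median 0.00), and of 24 cytochrome P450 probe sets 4 fell and none rose (16.7%). The ones that rose included monolignol glucosyltransferases. UGT72E2 read 5.0, 5.08 and 4.71 against 8.37, 9.39 and 8.84 (3.94, SE 0.317; limma, Benjamini-Hochberg adjusted p = 0.000115), and UGT72E1 rose by 4.60, and they were 3.71 and 3.30 with the spike score, not called. GSTU25 read 3.48, 3.48 and 3.57 against 6.10, 6.68 and 6.79, a rise of 3.01, and was called with the actin score (3.12, adjusted p = 0.0473). CYP71B28 (−2.29), CYP71B35 (−2.26) and CYP71B34 (−1.48) fell (−1.60, −2.05 and −1.20 with the spike score, not called). In the list of abscisic acid and water stress 2 of 8 rose and 2 fell (50% called, median −0.06). The dehydrin LTI30 rose by 1.62 (1.67 with the spike score, not called). COR47 (−0.89) and COR27 (−1.69) fell with limma, Benjamini-Hochberg adjusted p = 0.0256 and 0.0401, and COR47 was −1.80 with the spike score, but COR27 was 0.81 under the spike and 0.42 under the actin score. The COR27 call ended on leaving out any array of the fit other than SMX replicate 1, control replicate 1 and control replicate 3, and the COR47 call without SMX replicate 1 or 3 or without replicate 2 or 3 of the group with both. In the defence list 2 of 13 rose, PDF2.5 (1.90, and 3.16 with the spike score) and ChiC (1.91, and 0.73), and 2 fell (30.8% called, near the 32.5% of all), with 10 of 13 changes negative and a median of −0.35. Most of the 13 are defensins and thionins. The PR-1-like AT4G30320 and the chitinase-like AT1G02360 and AT2G43620, which rose and are given below, are not among them. The defensin PDF1.4 changed by −2.57 but was −0.33 under the spike and 0.64 under the actin score, differed by −3.06 between the untreated arrays, and lost its call on leaving out any one of the 6 arrays compared except SMX replicate 3.

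**Figure D2:**
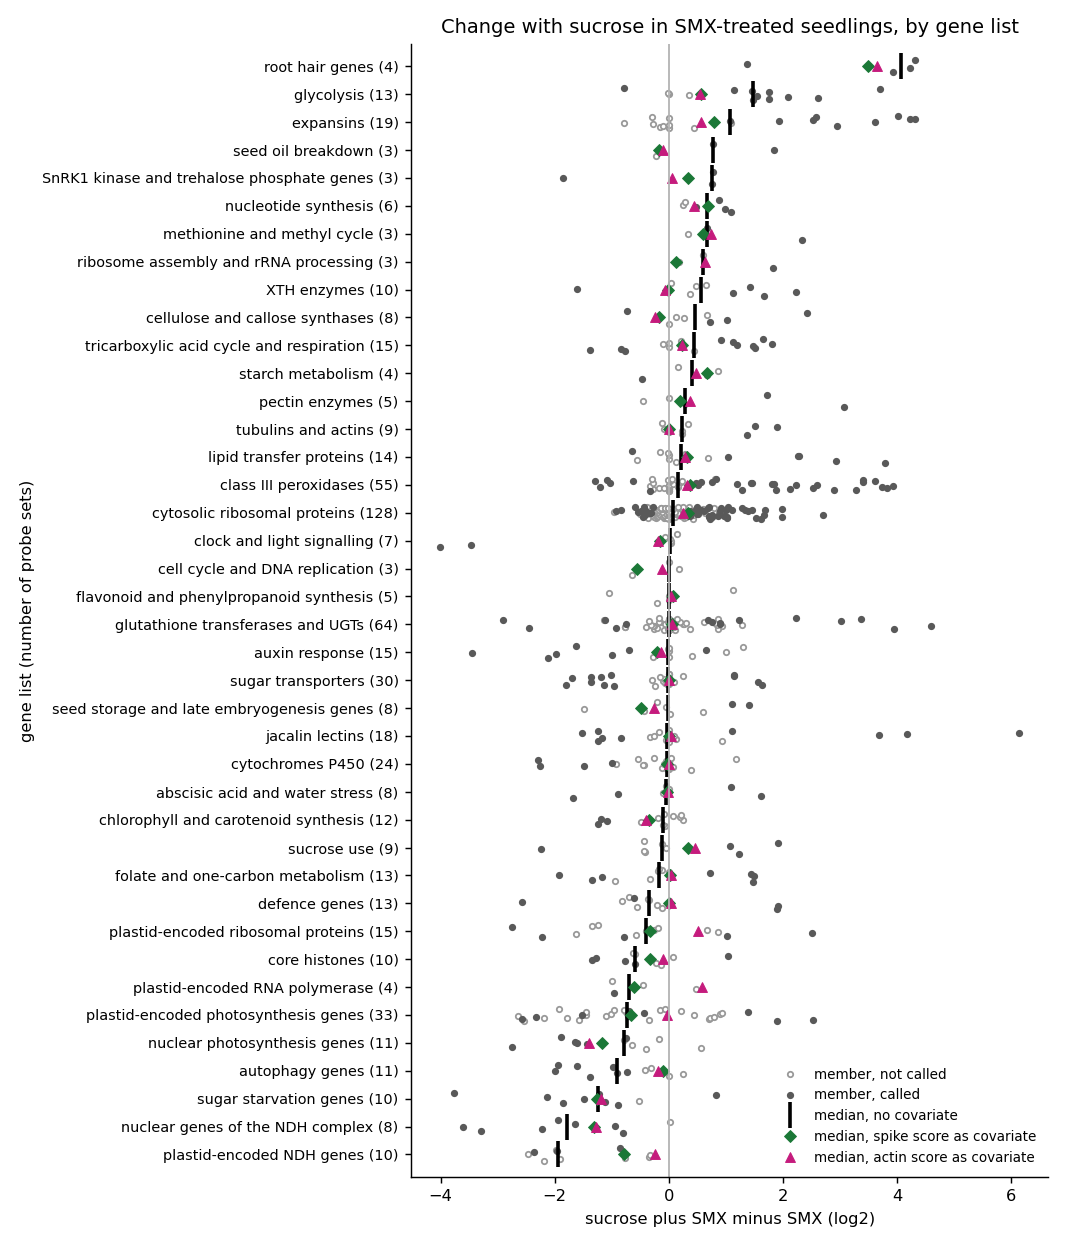
Log2 change with sucrose in SMX-treated seedlings (horizontal axis) for every member of 40 gene lists with at least 3 probe sets (filled circles called, open circles not called), with list medians without a covariate (vertical bar), with the spike score (diamond) and with the actin score (triangle). The median of the root hair genes was 4.07, 3.5 and 3.66 in the 3 fits and that of sugar starvation genes −1.25, −1.26 and −1.18, and those of autophagy genes and glycolysis move toward 0.

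The named genes with the largest rises were mostly not those that kept their size. After AT1G52070 came AT4G05150, at 6.0, 4.31 and 6.13 against 10.54, 11.96 and 11.15 (5.74, SE 0.708), AT5G13030 (5.48), the serine carboxypeptidase-like gene scpl35 (5.34), AT4G27640 (5.21), AT3G46280 (5.13) and AT1G76010 (4.85). AT1G76010 read 6.49, 4.87 and 6.46 without and 10.40, 11.22 and 10.75 with sucrose, clearly apart, yet its change was 0.73 under the spike and 0.54 under the actin score, and it differed by 3.09 between the untreated arrays. AT3G19430 (4.81), AT3G23170 (4.80), AT4G01395 (4.79), AT2G32600 (4.78) and AT5G01010 (4.76) completed the 12 largest, and at least 75% of the change remained with the spike score for 4 of the 12. Of these, AT4G27640 (5.76, from SMX values near the floor) and AT3G19430 (5.55) were larger with it. AT4G01395 and AT2G32600 were 1.79 and 2.13 with the spike score. The untreated arrays differed by 2.90 for AT5G13030, 2.59 for AT4G01395 and 1.85 for AT2G32600. That difference was above 0 for 9 of the 12 rises and below 0 for 3. AT5G13030 has a second probe set, which changed by 0.27 where the first rose by 5.48. Over the 145 genes with more than 1 probe set of their own when counted by locus (152 by symbol), 79 had a called probe set, 15 had all called in 1 direction, 8 had probe sets called in opposite directions, and the median gap between the probe sets of a gene was 0.74.

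The 12 largest falls kept more of their size, with at least 75% remaining for 9 of them with the spike score. AT2G05540, a glycine-rich protein, read 13.38, 13.10 and 13.30 on the SMX arrays and 8.29, 9.39 and 6.92 with sucrose, a change of −5.06 (SE 0.53; 33.4-fold; limma, Benjamini-Hochberg adjusted p = 0.00032) that was −5.55 with the spike score and differed by 0.08 between the untreated arrays. GAT1_2.1, a glutamine amidotransferase, read 9.06, 9.09 and 9.06 against 5.01, 4.95 and 2.72, so that the sucrose plus SMX arrays spread widely and all lay lower (−4.85). A second probe set of GAT1_2.1 changed by −0.92 near the floor. AT2G25450, an enzyme that hydroxylates glucosinolates, fell by 4.38, and AT2G03850, a late embryogenesis abundant family member, by 4.24. AT4G33666 (−4.27), AT2G46250 (−4.22), AT5G48490 (−4.20), AT3G19800 (−4.15), CCL (−4.01), the GDSL lipase AT1G75900 (−3.87), the glutaredoxin AT5G18600 (−3.84) and AT5G47610 (−3.83) were the others. AT5G48490, a lipid transfer protein, was −1.68 with the spike score and differed by −1.48 between the untreated arrays.

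**Figure D3:**
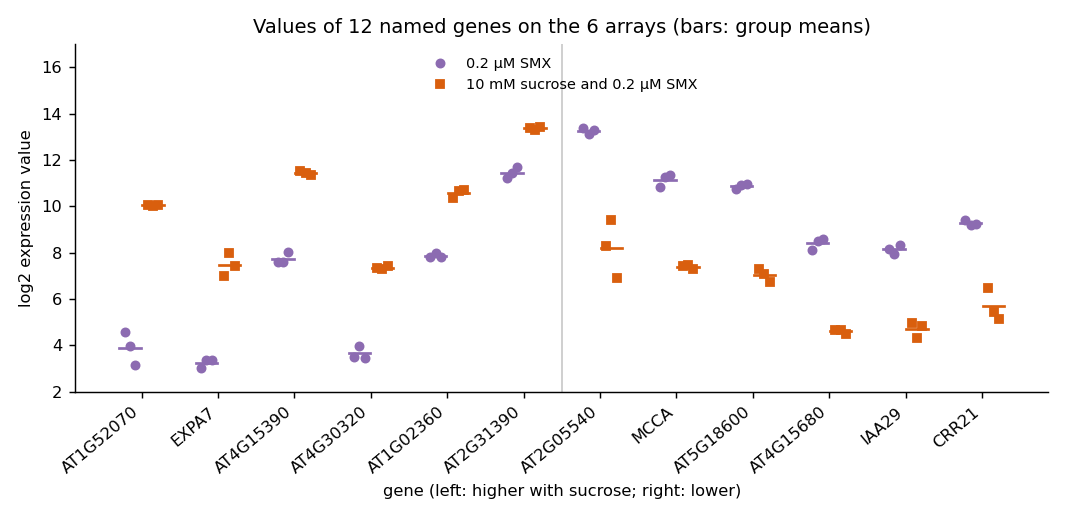
Log2 expression values (vertical axis) of 12 named genes on the 3 SMX arrays (circles) and the 3 sucrose plus SMX arrays (squares), with bars at group means. The 6 genes on the left are higher and the 6 on the right lower on every sucrose plus SMX array, from 10.03 to 10.07 against 3.17 to 4.56 for AT1G52070.

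A smaller group of genes was called with the labelling scores as well. Among single-gene probe sets with a call, a higher-group mean of at least 5 and no overlap, 46 were also called with the spike score, 31 of them up, and the 10 with the smallest p there follow. AT4G15390, a BAHD acyltransferase, read 7.62, 7.58 and 8.03 without and 11.53, 11.44 and 11.34 with sucrose, a rise of 3.69 (SE 0.136; limma, Benjamini-Hochberg adjusted p = 7.22e-06) that was 3.87 with the spike score (adjusted p = 0.0158) and 3.79 with the actin score (adjusted p = 0.00586). AT4G30320, of the PR-1-like secreted protein family, read 3.49, 3.99 and 3.46 against 7.34, 7.31 and 7.41 (3.70, and 4.5 with the spike score). AT1G02360, a chitinase-like protein, read 7.80, 7.97 and 7.80 against 10.36, 10.66 and 10.72 (2.72, and 3.13 with the spike score). These 3 groups of arrays were tight and far apart. AT4G15680, a glutaredoxin, fell from 8.12, 8.51 and 8.57 to 4.68, 4.65 and 4.5 (−3.79, and −3.46 with the spike score), beside the glutaredoxin AT5G18600 at 10.76, 10.90 and 10.95 against 7.28, 7.10 and 6.73 (−3.84, and −3.25). AT3G02910 (3.17), AT3G15357 (2.02) and AT1G72175 (1.18) rose, AT1G78170 fell by 2.17, and the fructokinase AT2G31390 and the lipid transfer protein AT3G53980 completed the 10. The untreated arrays differed by −0.76 to 0.31 for these 10 genes. A size kept under a covariate extends slopes seen within groups across a gap of 4.71 in the score, so neither a kept nor a smaller size separates labelling from a response to sucrose.

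**Figure D4:**
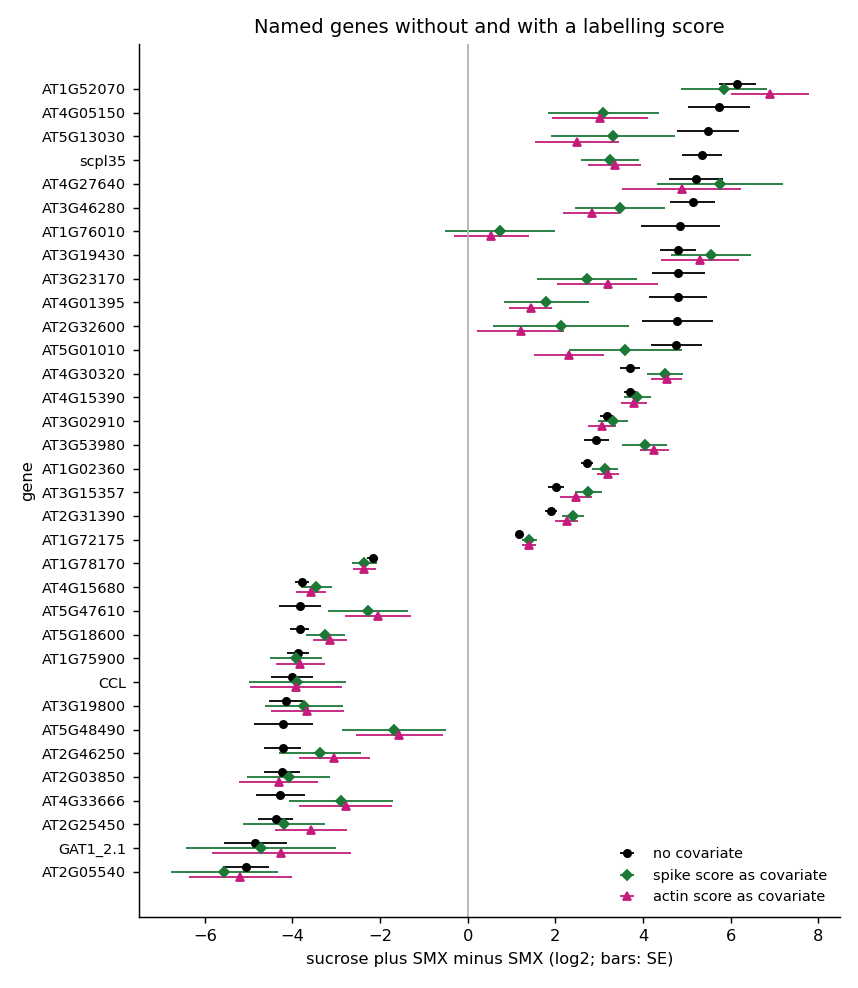
Log2 change with sucrose (horizontal axis, bars: SE) of the 12 largest rises, the 12 largest falls and the 10 genes called with the spike score, without a covariate (circles), with the spike score (diamonds) and with the actin score (triangles). AT1G76010 moves from 4.85 to 0.73 and 0.54, while AT4G15390 stays at 3.69, 3.87 and 3.79.

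The sucrose change in SMX-treated seedlings closely resembled that without the drug. Sucrose alone against the untreated control, a comparison that shares no array with this one, called 5336 probe sets (23.5%). Across all probe sets the changes correlated at Pearson r = 0.913 and Spearman rho = 0.851, as a description, and the labelling difference was in both, with a spike score difference of −4.02 without the drug. Of the 7384 probe sets called with SMX, 97.9% had the same sign without it. The 4582 called in both made up 62.1% of those called with SMX and 85.9% of those called without, and 4 of them had opposite signs. The median size of the 7384 changes was 1.24 with SMX and 0.92 without. For the gene groups above the medians with and without SMX were −1.25 and −1.05 for sugar starvation genes, 1.48 and 1.30 for glycolysis, 1.06 and 0.51 for expansins, 4.07 and 2.65 for root hair genes, −0.78 and −0.34 for nuclear photosynthesis genes, and −0.16 and 0.13 for folate genes, differences that were not tested as groups.

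The test of the difference itself, the sucrose change with SMX minus that without, called 16 probe sets (0.0703%; limma, Benjamini-Hochberg), 8 up and 8 down, with 1391 at an unadjusted p under 0.05, and 4 genes met the naming conditions. AT5G40590, a C1-domain protein, read 5.68 on all 3 SMX arrays and 8.2, 7.65 and 8.19 with sucrose and SMX, against 5.36, 5.52 and 6.04 in the control and 5.72, 5.68 and 5.59 with sucrose alone. The 3 arrays with both additions stood apart from all others, a difference between the changes of 2.31 (SE 0.267; limma, Benjamini-Hochberg adjusted p = 0.0397). The identical value of 5.68 on 4 arrays means that this size is not exact. AT2G43620, a chitinase-like protein, read 5.83, 6.41 and 6.07 with both additions, against 2.36 to 2.57 with SMX and 2.65 to 3.65 with sucrose alone, a difference of 2.91 (SE 0.336; adjusted p = 0.0397) from values near the floor. AT1G74010, of the strictosidine synthase-like family, read 6.64, 5.98 and 6.01 with both and 3.43 to 4.5 on the other 9 arrays, a difference of 2.25 (SE 0.284; adjusted p = 0.0488). AT5G42250, an alcohol dehydrogenase-like protein, was lowest with both, at 7.16, 6.92 and 6.91, and highest with SMX alone, at 9.02, 8.73 and 8.51, a difference of −1.56 (SE 0.199; limma, Benjamini-Hochberg adjusted p = 0.0488). The peroxidase AT5G64120 (2.0, adjusted p = 0.0602) and LBD29 (−1.89, adjusted p = 0.0765) did not pass. With the spike score 1 probe set was called and with the actin score 2. The count was 42 without SMX replicate 2 and 48 without SMX replicate 3, and 7 to 10 without control replicate 2 or 3, sucrose replicate 2, or sucrose plus SMX replicate 2 or 3.

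**Figure D5:**
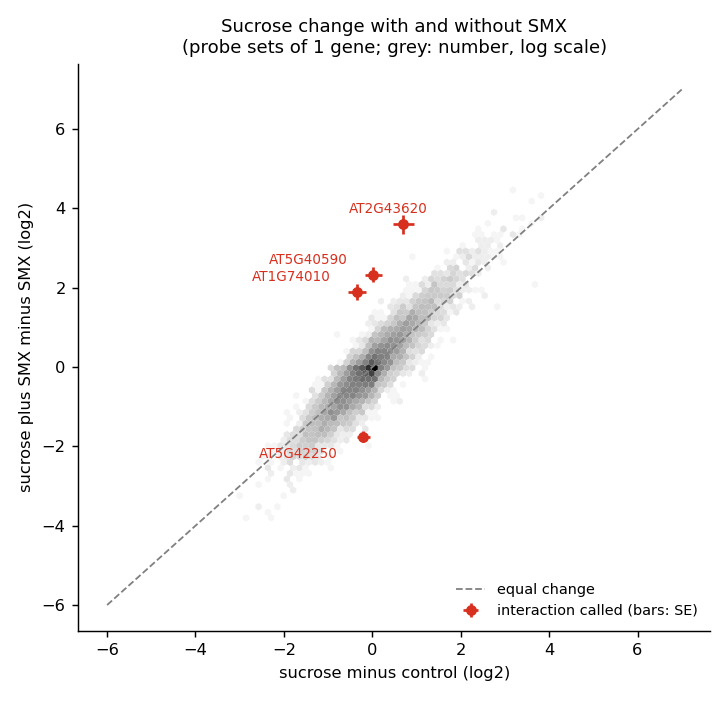
Log2 change with sucrose in the presence of SMX (vertical axis) against that in its absence (horizontal axis) for the probe sets paired with 1 gene (grey, number per cell on a log scale), with the 4 named genes called for the difference (points, bars: SE) and a dashed line of equal change. AT5G40590 lies at 2.33 with and 0.02 without SMX, and AT5G42250 at −1.76 and −0.20.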

How the data were processed

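Transcripts were measured on 12 Affymetrix arrays, 3 per treatment, and the 6 arrays of SMX with and without sucrose were compared. The deposited values are log2 expression values of 22810 probe sets, and GCRMA and limma are named, without version or order, per the submitters' processing notes. No log base is stated, so base 2 was read from the range. The 64 array controls were left out of the tests. The platform annotation, updated to TAIR10.1 names, gave 1 gene to 13513 of the 22746 probe sets, of which 13436 had a locus in current use. It gave several genes to 503 and none to 8730, and those are not named. Close paralogs may share probes, which was not tested.

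One fit in limma 3.58.1 (R 4.3.3; lmFit and eBayes) held all 12 arrays as 4 group means, with Benjamini-Hochberg adjustment over all probe sets and calls at an adjusted p under 0.05, two-sided. The contrasts were sucrose plus SMX minus SMX, sucrose minus control, and their difference. Fits were repeated with each labelling score as a covariate, 1 choice at a time for the other alternatives, and the procedure was tested on simulated data. Labelling measures were compared by exact permutation of 3 against 3 arrays. The naming conditions were a call, no overlap between the 3 and 3 arrays, and a higher-group mean of 5 or more. Among genes that met them, the 12 largest rises and falls were named. So were the 10 with the smallest p among those also called with the spike score, and up to 5 for the difference. For each list with at least 3 called members, the 3 called members with the smallest p were named without the overlap and level conditions. A further 7 genes were named always, without any condition. Other list members named in the text were chosen after their values were seen. Members and gene lists were chosen with earlier results of these data known, and 21 lists were redrawn once the annotation's coverage was known, so counts and medians describe them without a test. No genome or promoter sequence was used here, so promoter motifs were not searched. The number of arrays limits the precision, and log2 changes near the floor are not exact.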

Additional observations from a re-analysis of the deposited data

Results flagged for a closer look

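For 4 genes the sucrose change differed with and without SMX in the test of that difference (limma, Benjamini-Hochberg adjusted p = 0.0397 to 0.0488). The difference between the changes was 2.31 for AT5G40590, 2.91 for AT2G43620 and 2.25 for AT1G74010, whose values were higher on all 3 sucrose plus SMX arrays than on any other array. It was −1.56 for AT5G42250, lowest on those 3 arrays. The sucrose change with SMX, which is another quantity than that difference, was 2.33, 3.60, 1.90 and −1.76 for the 4 genes in this order. Under the spike score it was 2.92, 3.61, 1.64 and −1.83. The difference between the changes was called for 1 probe set of all tested when the spike score was in the fit.

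The array's 25S rRNA control probe set, which entered no test, averaged 10.7 on the sucrose plus SMX arrays (9.20, 10.8 and 12.0) against 4.01 on the SMX arrays (2.17, 4.39 and 5.48) and 3.91 on the untreated arrays. With sucrose alone it read 2.38, 12.3 and 11.03, so sucrose replicate 1 lay with the arrays without sucrose.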

How the results depend on the processing

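The count of 7384 probe sets called for sucrose plus SMX against SMX fell to 138, 154 and 305 with the spike score, a second-generation spike score (chosen after seeing the data) and the actin score as a covariate, whose standard errors were also larger. It was 4869 with a change of at least 1 in addition and 3762 among the fewer probe sets of 1 gene, and 5985 to 7717 when single arrays were left out. After median centring, which moved the overall median change to −0.052, after quantile normalization, at a mean above 4 or 6 and with the 6 arrays alone it stayed within 6191 to 7984.

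The count of 16 for the difference between the changes was 1, 3 and 2 with the spike, second-generation spike and actin scores, 8 after quantile normalization, 6 among probe sets of 1 gene, and 7 to 48 when single arrays were left out. The cause was not tested. Deviations of same-numbered arrays of the 2 groups compared correlated at −0.031, 0.010 and 0.093, and those of differently numbered arrays at −0.091 to 0.080. These few values cannot show whether arrays of the same number were handled together. With the replicate block the counts were 7098 and 1.

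Of 126 named probe sets, 19 kept call and direction with the spike score, 21 with the second-generation spike score and 31 with the actin score. The reversals were COR27, at 0.81, 0.88 and 0.42 with the 3 scores, and PDF1.4, at 0.11 with the second-generation spike score and 0.64 with the actin score. The promoter motif count was not run, for want of sequences.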
